A study of Mus musculus with 12 samples.

Results

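The mouse microRNAs (miRNAs) described here carry a number of 1000 or above in their name (mmu-miR-N). As a rule this marks a late entry in the miRNA database, since numbers were given out largely in order of discovery. They were found by their name on the arrays, and names with a probe match between 110700000 and 111600000 of chromosome 12 (mm9 genome build) were left out. Of the 696 mouse miRNA names on the arrays, 116 had such a number, 6 of these lay in the chromosome 12 window, and 110 remained. No measured value was used to choose them.

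C57BL/6J mice wore a frosted plastic diffuser over the right eye for 10 days, from postnatal day 24 (P24) to P34, which blurs the retinal image and induces form-deprivation myopia. The left eye of the same animals stayed uncovered and served as the control, so that control and myopic eyes shared genotype and age. Retina and sclera were dissected at P34, the tissue of 3 eyes was pooled, and each pool was hybridized to 1 array. This gave 4 groups of 3 arrays, namely retina and sclera of control eyes and retina and sclera of myopic eyes. The sample labels name a single mouse per array, while the methods of the study speak of pools. The neuronal and photoreceptor miRNAs (8 names of miR-183, miR-182, miR-96, miR-124 and miR-9) summed to a signal between 206501 and 309434 on the retina arrays and between 843 and 13756 on the sclera arrays. The connective-tissue miRNAs (7 names, among them miR-199a and miR-214) summed to between 159 and 459 in the retina and between 4999 and 14704 in the sclera. In pooled tissue, fewer cells of a type and less RNA per cell cannot be told apart. Control retina 1 stood apart from the other control retinas. Over the 246 miRNAs detected on all 12 arrays its median distance from the mean of the myopic retinas was 0.10 on the log2 scale, against 0.35 from the mean of control retinas 2 and 3. The corresponding distances from the myopic mean were 0.37 and 0.41 for control retinas 2 and 3.

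MiRNAs are short RNAs that are cut from hairpin precursors and guide a protein complex to messenger RNAs, which are then silenced. Recognition of a target rests mainly on the seed, bases 2 to 8 of the mature miRNA. The retina is the light-sensing nervous tissue of the eye, and the sclera is its outer coat of collagen and fibroblasts, which is remodeled when the eye becomes myopic. The miRNAs found early tend to be abundant and conserved across vertebrates, whereas late-numbered entries came from deeper sequencing and are more often rare, found in a single species or later renamed or withdrawn by the database.

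Mature sequences of the members on which the retina results turn are shown first, with the seed in capitals. They were taken from RefSeq (GRCm38.p6), where 67 of the 110 names had a mature sequence.
mmu-miR-1947-5p: aGGACGAGcuagcugagugcug
mmu-miR-1936: uAACUGACcugcugugaacuggc
mmu-miR-1894-5p: cUCUCCCCuaccaccugccucu
mmu-miR-1894-3p: gCAAGGGAgagggugaagggag
mmu-miR-1306-3p: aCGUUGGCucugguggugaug
mmu-miR-1187: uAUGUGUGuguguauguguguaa
mmu-miR-1896: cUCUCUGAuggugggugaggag
mmu-miR-2136: cUGGGUGUugacugagaugug
mmu-miR-3099-3p: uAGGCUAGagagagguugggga
mmu-miR-1224-5p: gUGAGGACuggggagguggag
No other miRNA on the arrays with a RefSeq sequence had the seed of any of these 10. Among all members with a mature sequence, 4 shared a seed with another miRNA on the arrays. mmu-miR-1961 carried the seed GAGGUAG of 8 let-7 names and mmu-miR-98-5p, mmu-miR-1928 that of mmu-miR-221-3p and mmu-miR-222-3p, and mmu-miR-1192 that of mmu-miR-495-3p, and none of these 3 members was detected on any array. mmu-miR-1983 shared its seed with mmu-miR-412-3p, which was not detected.

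For the members that carried the most signal or differed most between the tissues, the longest probe is shown instead, since RefSeq had no mature sequence under their array names. The probes are DNA complementary to the miRNA, and the capitals mark the base by which the probes of mmu-miR-1937b and mmu-miR-1937c differ.
mmu-miR-1937b_v16.0: tgggggctcGtcc
mmu-miR-1937c_v16.0: tgggggctcTtccg
mmu-miR-2141_v15.0: aacttttctgacacctcc
mmu-miR-3473_v15.0: ggctgagccatctct
mmu-miR-3470a: ccagcctggtctaca
mmu-miR-1927: tcagtccctaacatcca
Counted from the 5′ end of the probe, the mmu-miR-1937b and mmu-miR-1937c probes differed by G10T over the 13 bases they have in common. The probe of mmu-miR-3470a is complementary to all of its 15 bases in mmu-miR-3470b as well, so that these 2 miRNAs cannot be told apart by it. It was the 1 case of a full match to another RefSeq mature sequence among the 46 members detected. The array annotation also lists more than 1 mature miRNA identifier for mmu-miR-1937b_v16.0, mmu-miR-3107-5p and mmu-miR-5097. Their names therefore need not single out 1 miRNA, and other sequences missing from RefSeq were not compared. For mmu-miR-3107-5p, 1 of its identifiers is numbered below those of all other members, so it need not be a late entry. The probe of mmu-miR-3473_v15.0 matched 14 of its 15 bases in mmu-miR-3473a. Agilent miRNA probes pair with the 3′ part of the miRNA, and in 8 of the 22 detected members with a known mature sequence the longest probe covered no base of the seed.

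Most of the late-numbered miRNAs were not detected. Of the 110 members, 64 were detected on no array, 16 on 1 to 11 arrays and 30 on all 12. Thus 41.8% of the members were detected at least once, compared with 67.7% of the other 586 mouse miRNAs. Per array, 34 to 40 members were detected in the control retina, 41 to 45 in the myopic retina, 32 or 33 in the control sclera and 31 to 33 in the myopic sclera. A miRNA counts as detected when the image analysis software marked at least 1 of its probes, and the files give 0.1 for a miRNA that has none. In all, 12 of the 110 members were detected only in the retina and 1, mmu-miR-1940, only in the sclera. For all 696 mouse miRNA names these counts were 115 and 25.

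Detection followed the number block and, more closely, the way the entry is named. With a number under 2000, 28 of 85 members were detected, against 13 of 15 between 2000 and 3000 and 5 of 10 from 3000 upward. The names of 15 members end in a tag (_v15.0 or _v16.0) for a release of the miRNA database, and 14 of these were detected on all 12 arrays, the exception being mmu-miR-1959_v16.0 with no detection. Of the 95 members without a tag, 16 were detected on all 12 arrays. None of the 15 tagged names had a mature sequence in RefSeq, against 67 of the 95 untagged names. Among the other 586 mouse miRNAs 10 names had such a tag, and 2 of these were detected on all 12 arrays. Probes that match more than 1 place in the genome were also detected more often, in 8 of 9 members, compared with 36 of 97 with a single match.

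The longest probes of the members detected on all 12 arrays were short and rich in G and C. Their median length was 14 bases and their median GC content 64.3%, whereas the longest probes of the other 216 miRNAs detected on all 12 arrays had medians of 18 bases and 50% GC. In the 64 members never detected the medians were 16 bases and 56.2% GC. Probe design sets its length by melting temperature, so length and GC content are not independent of each other.

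Although most members were not detected, the others carried a large part of the signal. They held 13.3% to 17.5% of the detected signal on the retina arrays and 33.2% to 49.4% on the sclera arrays. The group means were 15.5% ± 2.1 (SD, n = 3) in the control retina, 15.3% ± 1.7 in the myopic retina, 40.6% ± 8.2 in the control sclera and 40.4% ± 2.0 in the myopic sclera. Thus the shares of the 2 tissues did not overlap, and those of control and myopic eyes did. One entry, mmu-miR-1937b_v16.0, accounted for most of this in every group.

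**Figure D1:**
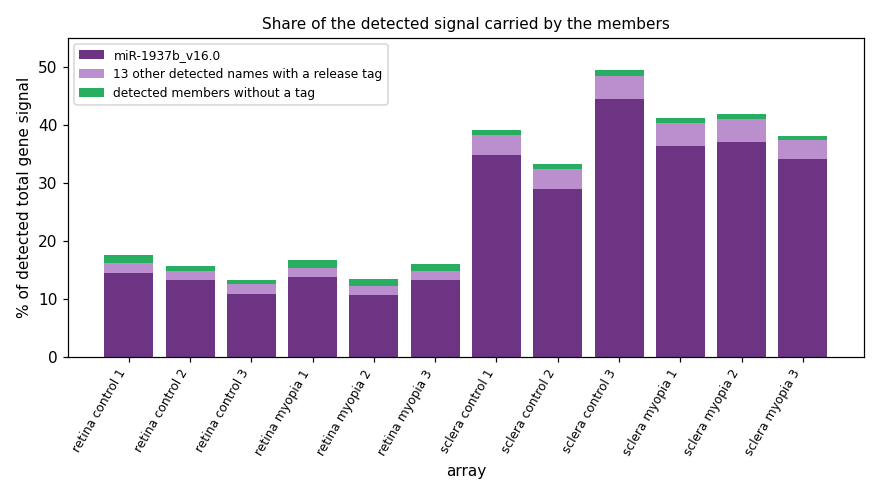
Share of the detected total gene signal (%, linear axis from 0) carried by the members on each of the 12 arrays, split into mmu-miR-1937b_v16.0, the 13 other detected members with a release tag and the detected members without a tag. On all 6 sclera arrays the members held at least 33.2% of the signal, and on all 6 retina arrays at most 17.5%.

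The total gene signal of mmu-miR-1937b_v16.0 was 88679, 82814.5 and 77832 on control retinas 1 to 3 and 93734.7, 88649.5 and 78646 on the myopic retinas. It was 123502, 110785 and 89044 on the control scleras and 117038, 104540 and 80295 on the myopic scleras. Its mean signal was thus 83109 ± 5429 in the control retina and 107777 ± 17425 in the control sclera, whereas the total detected signal was 652038 ± 55732 and 312979 ± 98237 (SD, n = 3 each). It was the brightest miRNA name on each sclera array and ranked 2 or 3 on each retina array, where mmu-miR-124-3p was brightest. RefSeq had no mature sequence under this name, and whether its signal came from a miRNA was not tested. Its probe matched 6 places in the mm9 genome, for example chr1:53753322-53753334 on the plus strand. The signal of mmu-miR-1937b_v16.0 was 63.4 to 79.0 times that of mmu-miR-1937c_v16.0 on the 12 arrays, with a median of 70.8. How much of the mmu-miR-1937c signal came from the near-identical sequence was not tested.

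Without mmu-miR-1937b_v16.0 the members held 2.67% to 3.45% of the remaining signal in the retina and 6.04% to 8.96% in the sclera. The 10 brightest members by mean log2 level were mmu-miR-1937b_v16.0 at 16.14, mmu-miR-2146_v15.0 at 11.82, mmu-miR-5097 at 10.99, mmu-miR-2141_v15.0 at 10.87, mmu-miR-1937c_v16.0 at 10.51, mmu-miR-2138_v15.0 at 10.50, mmu-miR-1939_v16.0 at 9.75, mmu-miR-2145_v16.0 at 9.30, mmu-miR-1224-5p at 9.15 and mmu-miR-2134_v15.0 at 8.93. Of these, 8 carry a release tag. The order describes fluorescence of different probes and was not tested as an order of abundance. Members without a tag together held 0.93% ± 0.28, 1.17% ± 0.07, 0.91% ± 0.11 and 0.82% ± 0.04 (SD, n = 3) of the signal in retina of control and of myopic eyes and in sclera of control and of myopic eyes.

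**Figure D2:**
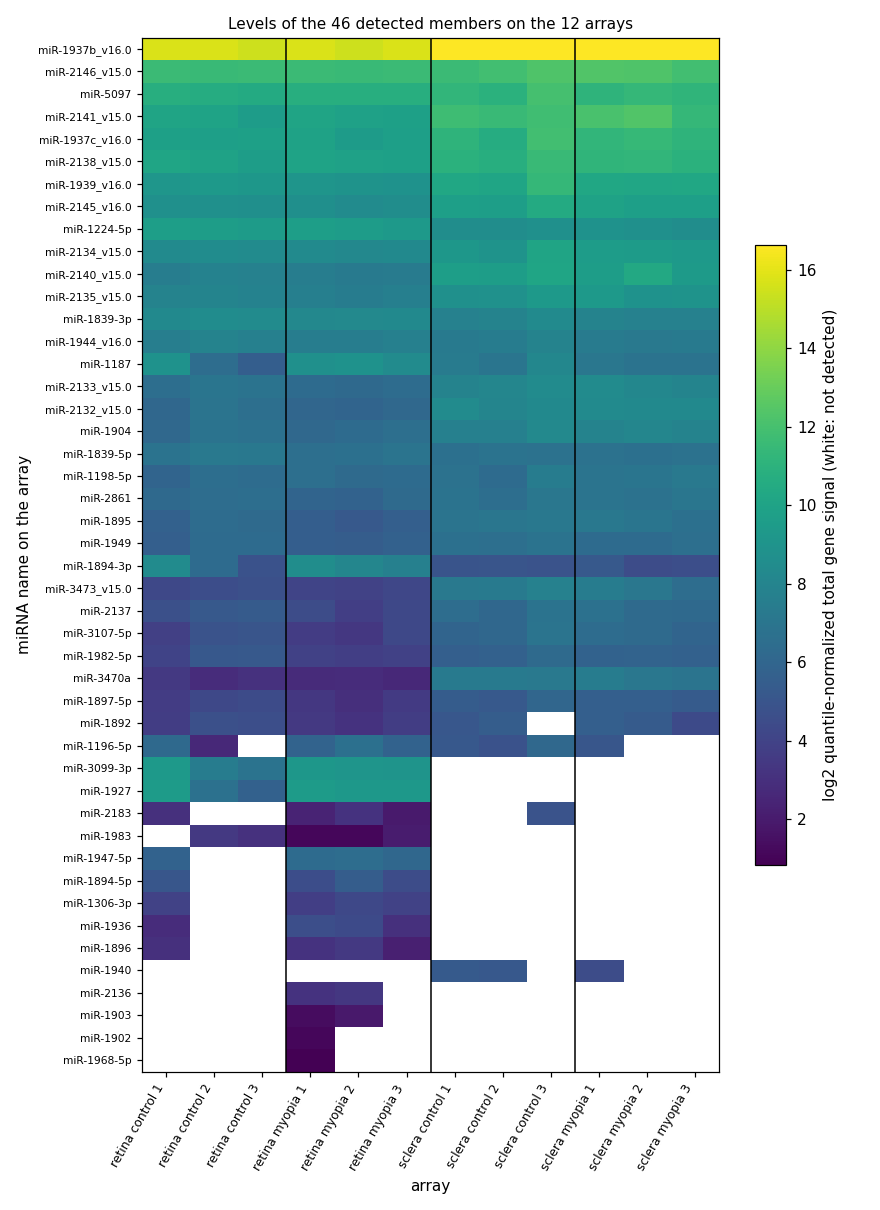
Log2 quantile-normalized total gene signal (colour) of the 46 members detected at least once (rows, ordered by the number of arrays with a detection and then by mean level) on the 12 arrays (columns, 3 per group); white cells were not detected. The block of rows with partial detection is filled mainly in the retina, and there on the myopic arrays and on control retina 1.

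The tissue comparison asked which members differ between retina and sclera of the same kind of eye. In control eyes 20 of the 46 members detected at least once were called, against 50.6% of all 443 miRNAs tested, that is, they passed limma with an adjusted p under 0.05 and a difference of at least 2-fold. Of these, 3 were higher in the retina, against 27.5% of all, and 17 were higher in the sclera, against 23% of all. In myopic eyes 31 members were called (background 58.9%), 12 higher in the retina (background 32.5%) and 19 in the sclera (background 26.4%). On the normalized scale the groups did not overlap in 3 members with the retina higher (background 33%) and 22 with the sclera higher (background 26%) in control eyes, and in 15 (background 43.6%) and 25 (background 35%) in myopic eyes. In mean raw signal 12 of the 30 members detected on all arrays were higher in the control sclera, against 62 of all 246. For some the raw signals separated the other way, for example mmu-miR-1982-5p with the control retina higher. The median difference of the members tested, retina minus sclera, was -0.60 in control eyes and -0.74 in myopic eyes on the log2 scale, beside 0.30 and 0.36 for all 443 miRNAs.

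The members higher in the retina included 2 that were detected on every retina array and on no sclera array. mmu-miR-1927 (mm9 chr1:162226067-162226082, minus strand) had signals of 949, 122 and 53.1 on the control retinas and 965, 1057 and 707 on the myopic retinas, and was not detected on any sclera array. mmu-miR-3099-3p (mm9 chr7:6756356-6756370, plus strand, inside the span of the imprinted gene Usp29 in RefSeq) had 838, 222 and 149 on the control retinas and 869, 956 and 623 on the myopic retinas, and was likewise not detected in the sclera. For both miRNAs the retina and sclera groups did not overlap. Because an undetected miRNA sits at the floor, the size of the difference is given as a bound: mmu-miR-1927 was at least 29.3-fold higher in the control retina and at least 141-fold higher in the myopic retina (adjusted p = 7.54e-06 and 1.39e-06, limma). For mmu-miR-3099-3p the bounds were 22.3-fold and 89.4-fold (adjusted p = 2.1e-07 and 8e-08, limma). Here and below, p-values of members undetected in a tissue come from values at the floor and do not test the bounds. Such values have no spread, with an SD of 0 in the sclera for both miRNAs. The opposite arm of the same hairpin, mmu-miR-3099-5p, was detected on no array.

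mmu-miR-1983 was the other member called higher in the control retina, with signals of 10.9 and 7.65 on control retinas 2 and 3 and no detection on control retina 1 or in the sclera. It lay close to the lowest detected signal and its bound came out under 1 in control eyes, so no fold is given (adjusted p = 0.029, limma). mmu-miR-1224-5p, which lies inside the span of Vwa5b2, differed by 0.96 ± 0.14 (SE) in control eyes and 0.81 ± 0.14 in myopic eyes, just under 2-fold, with adjusted p of 0.000214 and 0.000663. Its raw signal was 1049, 1066 and 1055 on the control retinas and 270, 312 and 144.7 on the control scleras. The 2 arms mmu-miR-1839-3p and mmu-miR-1839-5p, of 1 hairpin on chromosome 7, were detected on all 12 arrays and differed by 0.42 ± 0.16 and 0.33 ± 0.14 in control eyes, neither reaching 2-fold.

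The other 10 members called higher in the retina of myopic eyes were all without a tag. Of these, 5 were detected on all 3 myopic retinas and on no myopic sclera: mmu-miR-1947-5p by at least 23.0-fold, mmu-miR-1894-5p by at least 9.02-fold, mmu-miR-1936 by at least 5.28-fold, mmu-miR-1306-3p by at least 5.18-fold and mmu-miR-1896 by at least 2.78-fold (adjusted p between 0.000793 and 0.00368, limma). These p-values rest on the floor in the sclera and do not test the bounds. mmu-miR-1983 had the same pattern with a bound of 1.29-fold (adjusted p = 0.0492), and mmu-miR-2183 did not pass (adjusted p = 0.0733). mmu-miR-1894-3p, detected on all 12 arrays, was higher by 3.33 ± 0.73 (adjusted p = 0.00256), with signals of 566, 539 and 283 in the retina and 15.6, 7.12 and 6.17 in the sclera. mmu-miR-1196-5p was detected on 1 of 3 myopic scleras and differed by 5.10 ± 1.95 (adjusted p = 0.0398), a size that rests on the floor on the other 2 and was 2.23 ± 0.79 from the spot signals. The remaining 2, mmu-miR-2136 and mmu-miR-1903, were detected on 2 of 3 myopic retinas and on no sclera (adjusted p = 0.0224 and 0.0242), with a bound of 1.26-fold for the first and none for the second. Whether the tissue difference itself changed with myopia is the test of the interaction given further on.

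Among the members higher in the sclera, mmu-miR-3470a and mmu-miR-3473_v15.0 stood out in size. The signal of mmu-miR-3470a was 21.8, 8.17 and 7.49 on the control retinas and 91.4, 107 and 39.0 on the control scleras. It was 17.7, 26.7 and 9.67 on the myopic retinas and 79.5, 58.9 and 41.1 on the myopic scleras. Retina and sclera did not overlap in either kind of eye, and the normalized difference was -4.14 ± 0.19 in control eyes and -4.40 ± 0.19 in myopic eyes (adjusted p = 5e-08 and 3e-08, limma). Without normalization it was -2.72 ± 0.56 and -1.80 ± 0.56, still called in both.

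mmu-miR-3473_v15.0 had signals of 36.8, 24.4 and 20.6 on the control retinas and 89.8, 104 and 55.1 on the control scleras, a normalized difference of -2.94 ± 0.26 (adjusted p = 6.64e-06). In myopic eyes the difference was -2.93 ± 0.26 (adjusted p = 5.05e-06), but the raw signals overlapped, with 37.1, 48.4 and 28.3 in the retina and 80.9, 56.6 and 29.4 in the sclera. Without normalization the difference in myopic eyes was -0.47 ± 0.43 (adjusted p = 0.339). Of the remaining 15 members called higher in the control sclera, 10 carry a release tag, with differences between -1.02 and -2.11. They were mmu-miR-2140_v15.0, mmu-miR-2141_v15.0, mmu-miR-2132_v15.0, mmu-miR-1937c_v16.0, mmu-miR-1939_v16.0, mmu-miR-2133_v15.0, mmu-miR-2145_v16.0, mmu-miR-2138_v15.0, mmu-miR-2135_v15.0 and mmu-miR-1937b_v16.0. The size for mmu-miR-1937b_v16.0 follows from its rank, which was 1 on each sclera array and 2 or 3 on each retina array. Its mean raw signal in the control sclera was 1.30 times that in the control retina. The 5 without a tag were mmu-miR-3107-5p, mmu-miR-1897-5p, mmu-miR-2137, mmu-miR-1904 and mmu-miR-1982-5p, with differences between -1.06 and -1.76.

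**Figure D3:**
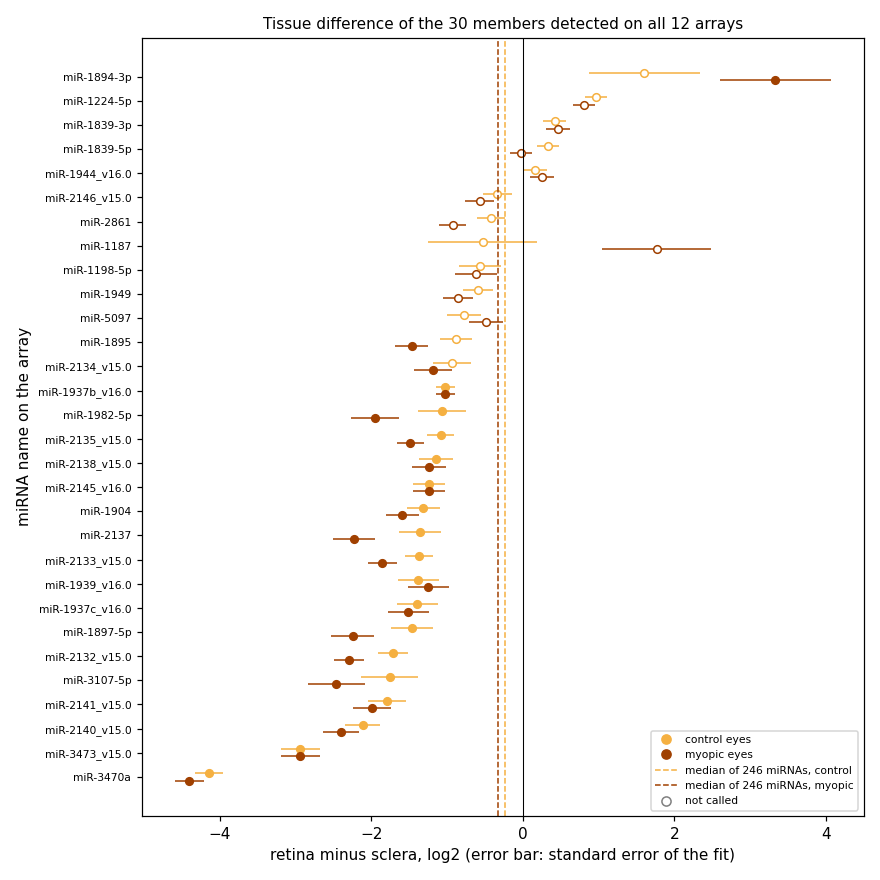
Difference between retina and sclera (log2, points with the standard error of the fit) of the 30 members detected on all 12 arrays, in control and in myopic eyes; filled points were called. Dashed lines mark the medians of the 246 miRNAs detected on all 12 arrays, at -0.24 and -0.32, and most members lie to the left of them.

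The sclera arrays had less signal in all, and the direction of these smaller differences depended on how the arrays were scaled. Without normalization the median difference over the 246 always detected miRNAs moved from -0.24 to 1.17 in control eyes and from -0.32 to 1.58 in myopic eyes. The share of calls that were higher in the retina then went from 54.5% (122 of 224) to 83.6% (224 of 268) in control eyes and from 55.2% to 86.4% in myopic eyes. With 75th percentile scaling these shares were 66.1% and 70.5%. Of the 17 members called higher in the control sclera, 10 kept that direction under all 16 settings that left out no array of the comparison, and 7 turned under at least 1 of them. Of the 19 in myopic eyes, 9 kept it and 10 turned.

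Relative to the other miRNAs the position of the members was more stable. The median of the 30 members detected on all arrays lay 0.83 below the median of all 246 in control eyes with the normalization reported here, and 1.03 below it both without normalization and with 75th percentile scaling. In myopic eyes the gap was -0.92, -1.24 and -1.24. Over the 16 settings it ranged from -1.10 to -0.31 in control eyes and from -1.30 to -0.30 in myopic eyes, the smallest gap in both coming with the normexp background correction. For the 14 tagged members the gap was -1.06 in control eyes. In raw signal, the ratio of control sclera to control retina had a median of 1.17 for the tagged members, 0.621 for the 16 untagged ones and 0.448 for all 246. Of the 14 tagged members, 10 had a ratio over 1, compared with 2 of the 16 untagged members, mmu-miR-3470a and mmu-miR-3107-5p. mmu-miR-1944_v16.0 was the tagged member with the lowest ratio, 0.311, and differed by 0.17 ± 0.16 after normalization. These are descriptions of lists chosen with the values known and were not tested as lists.

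**Figure D4:**
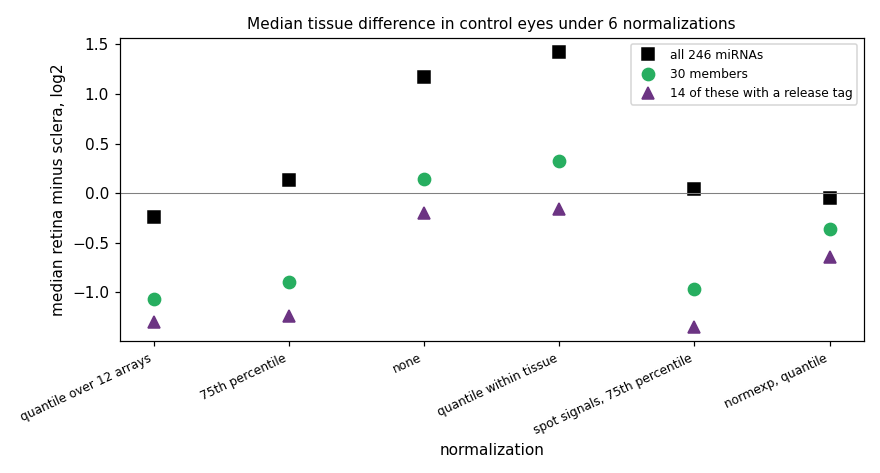
Median difference between control retina and control sclera (log2) of all 246 miRNAs detected on all 12 arrays, of the 30 members among them and of the 14 members with a release tag, under 6 normalizations. The medians move up and down with the normalization, while the members stay below all 246 in each and the tagged members lowest.

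The sclera arrays differed in their signal of neuronal miRNAs. The summed signal of the 8 neuronal and photoreceptor names was 11294, 13756 and 843 on control scleras 1 to 3. Leaving out control sclera 3 left 3 members called toward the retina and 13 toward the sclera in control eyes, and 7 instead of 11 tagged members among the latter. The part of this marker signal in the differences was not tested. mmu-miR-1927 and mmu-miR-3099-3p were undetected on all 6 sclera arrays, including those with the highest sums.

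The response to form deprivation in the retina was compared next. No member was called, and over all 443 miRNAs 1 was (0.226%). At an unadjusted p under 0.05 there were 19 of 46 members, 10 higher and 9 lower in the myopic retina, against a background of 29.3% of all miRNAs. The smallest adjusted p among the members was 0.134. In the fit 13 of the 46 members had a mean at least 2-fold higher in the myopic retina, against 16.7% of all miRNAs, and none at least 2-fold lower, against 9.48%. All 13 were members without a tag.

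The raw signals of these 13 showed a common picture. mmu-miR-1947-5p, inside the span of Lmln, had a signal of 89.1 on control retina 1, was not detected on control retinas 2 and 3, and had 152, 217 and 95.9 on the myopic retinas. mmu-miR-1936, inside the span of Itpk1, had 13.1 on control retina 1, no detection on the other 2, and 49.6, 60.7 and 12.7 on the myopic retinas. On the normalized scale these were the 2 members whose groups did not overlap with the myopic retina higher, against a background of 5.19%. Their fitted differences were 5.05 ± 1.501 and 3.74 ± 0.91 (SE, adjusted p = 0.134 for both, limma), and both sizes rest on values at the floor. In raw signal mmu-miR-1936 on control retina 1 was slightly above myopic retina 3.

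mmu-miR-1894-5p and mmu-miR-1894-3p are the arms of a hairpin inside the span of Ppp1r10, and both showed the pattern. The 5p arm had 55.1 on control retina 1, no detection on control retinas 2 and 3, and 48.2, 113 and 35.1 on the myopic retinas. The 3p arm had 479, 92.3 and 26.8 on the control retinas and 566, 539 and 283 on the myopic retinas, a difference of 1.56 ± 0.73 (adjusted p = 0.188). It was higher in the myopic retina in 3 of 3 pairs. mmu-miR-1306-3p, inside the span of Dgcr8, whose protein takes part in cutting miRNA precursors, had 29.99 on control retina 1, no detection on the other 2, and 30.1, 56.3 and 25.1 on the myopic retinas. mmu-miR-1896 had 16.8 on control retina 1, no detection on the other 2, and 21.2, 37.6 and 7.41 on the myopic retinas.

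Of the 13, 4 were detected on all 6 retina arrays, so that their sizes do not rest on the floor. mmu-miR-1927 was at 375 ± 499 in the control and 910 ± 181 in the myopic retina (SD, n = 3), mmu-miR-3099-3p at 403 ± 378 and 816 ± 173, and mmu-miR-1187 at 257 ± 318 and 669 ± 212. The control retina values of mmu-miR-1187 were 623, 104 and 44.9, so that control retina 1 was 6.00 times control retina 2 and 13.9 times control retina 3. For mmu-miR-1927 these ratios were 7.78 and 17.9, for mmu-miR-1894-3p 5.19 and 17.8, and for mmu-miR-3099-3p 3.77 and 5.62. The fitted differences were 2.01 ± 0.75, 1.21 ± 0.49 and 1.74 ± 0.72 for mmu-miR-1927, mmu-miR-3099-3p and mmu-miR-1187 (adjusted p = 0.151, 0.152 and 0.152, limma).

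**Figure D5:**
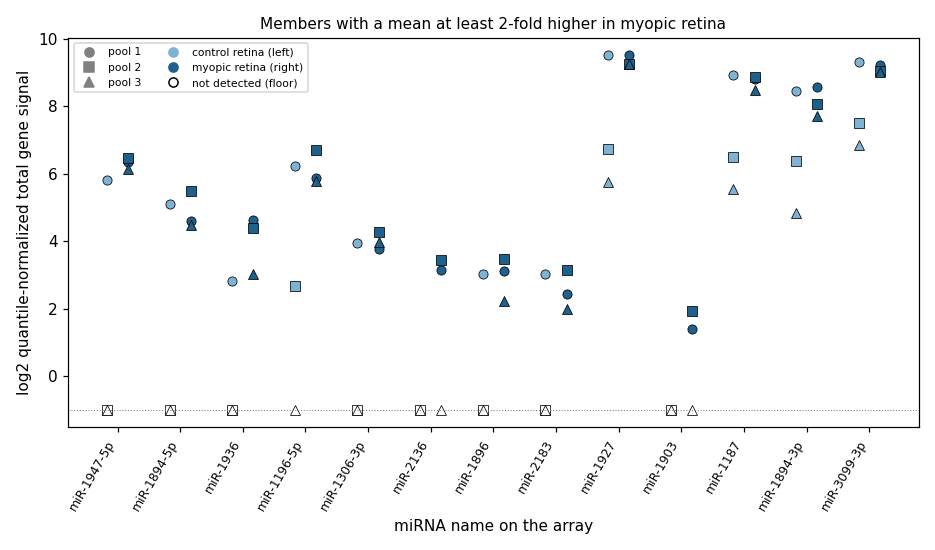
Log2 quantile-normalized total gene signal of the 13 members whose mean was at least 2-fold higher in the myopic retina, for each control retina (light, left) and myopic retina (dark, right), with the shape giving the pool number; open symbols on the dotted line were not detected. Control retina 1 (light circle) lies above control retinas 2 and 3 in 11 of the 13 and was detected and within the range of the myopic retinas in 7.

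In 11 of the 13 members control retina 1 was above both other control retinas, and in 6 it was the only control retina with a detection. The exceptions, mmu-miR-2136 and mmu-miR-1903, were detected on no control retina and on myopic retinas 1 and 2. Over all 46 members control retina 1 was the highest of the 3 in 17, or 37.0%, compared with 23.5% of all 443 miRNAs.

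Without control retina 1, 14 members were called in the retina, 9 higher and 5 lower. Over all miRNAs 122 of 443 were then called (27.5%), 14.7% higher and 12.9% lower, so that the share of the members, 30.4%, lay near the background. The 4 members with measured sizes rose by 3.10 ± 0.24 for mmu-miR-1927, 2.71 ± 0.38 for mmu-miR-1187, 2.52 ± 0.44 for mmu-miR-1894-3p and 1.92 ± 0.17 for mmu-miR-3099-3p (adjusted p = 3.63e-05, 0.000814, 0.00234 and 6.99e-05, limma). Control retina 1 was the control nearest to the myopic mean, and these 4 members had been picked for a higher myopic mean. Leaving that array out therefore favours larger differences, and these p-values are no independent test. The other 5 higher were mmu-miR-1947-5p, mmu-miR-1936, mmu-miR-1894-5p, mmu-miR-1306-3p and mmu-miR-1896, each undetected on both control retinas left. The 5 lower were mmu-miR-1982-5p, mmu-miR-1983, mmu-miR-2137, mmu-miR-1897-5p and mmu-miR-3107-5p. For each of these 5 the raw signals on control retinas 2 and 3 overlapped those on the myopic retinas. mmu-miR-1897-5p, for example, had 20.5 and 17.9 against 25.2, 28.6 and 20.2. With array weights, which let limma give less weight to arrays that deviate from their group, 20 members were called, against 33% of all miRNAs. Of these 15 were higher and 5 lower, compared with 83 and 63 of all 443. The calls of mmu-miR-1902 and mmu-miR-1968-5p rest on the floor, since each was detected on 1 myopic retina alone. As the weights came from the same deviations between arrays, these calls are no independent test either. Without myopic retina 3, 2 members were called, mmu-miR-2136 and mmu-miR-1903, against 3.16% of all miRNAs. Both were undetected on every control retina and on myopic retina 3, so that these calls set detected values against the floor and give no size. With all arrays the bound for mmu-miR-2136 was 1.58-fold and there was none for mmu-miR-1903, of which 1 probe had a signal of 10.8 on control retina 1 and of 12.2, 21.4 and 4.08 on the myopic retinas. With all arrays at equal weight the count was 0.

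Control retina 1 also differed from control retinas 2 and 3 in a marker of another tissue. The signal of mmu-miR-184-3p, which is abundant in corneal and lens epithelium, was 94.0, 1479 and 5342 on control retinas 1 to 3 and between 546 and 720 on the myopic retinas. The 4 names of the epithelial list (miR-184, miR-203 and miR-205) summed to 106, 1493 and 5368 on the control retinas, with 2 or 3 of the 4 detected. Nearly all of these sums was mmu-miR-184-3p itself. mmu-miR-205-5p was undetected on control retinas 1 and 2 and had 12.2 on control retina 3. The order of mmu-miR-184-3p is the reverse of that of the 4 members with measured sizes on the same 3 arrays. The part of this difference in the results was not tested.

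The members lower in the myopic retina had smaller differences. mmu-miR-1982-5p was lower by 0.97 ± 0.32, mmu-miR-2137 by 0.92 ± 0.28, mmu-miR-1897-5p by 0.83 ± 0.28 and mmu-miR-3107-5p by 0.82 ± 0.37 (adjusted p between 0.134 and 0.180, limma). mmu-miR-1892, detected on all retina arrays, was lower by 0.93 ± 1.44 (adjusted p = 0.785). Their raw signals scarcely differed: mmu-miR-2137 had 44.9, 36.7 and 41.7 on the control retinas and 46.4, 43.4 and 30.4 on the myopic retinas, and mmu-miR-1897-5p had 24.3, 20.5 and 17.9 against 25.2, 28.6 and 20.2. With 75th percentile scaling mmu-miR-1897-5p was higher by 0.13 and mmu-miR-3107-5p by 0.02, so that their direction rests on the normalization.

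On the normalized scale 11 members had lower values on every myopic retina than on any control retina, against 9.26% of all miRNAs, and 6 of the 11 carry a release tag. The 246 always detected miRNAs had a median difference of -0.21 with this normalization, and -0.02 with 75th percentile scaling. The members detected on all arrays had a median of -0.22, which was 0.07 without normalization. The median of the tagged members was -0.16. The raw signal of 13 of the 14 tagged members varied less than 2-fold over the 6 retina arrays, with a median ratio of highest to lowest of 1.45, as did that of 12 of the 16 untagged members detected on all 12 arrays, with a median of 1.56. mmu-miR-1937b_v16.0 changed by 0.00 ± 0.13, a value that follows from its rank, as quantile normalization gives the miRNAs of 1 rank the same level on every array.

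The presence or absence of a detection gave a one-sided pattern in the retina. In the retina 12 members had partial detection, that is, on 1 to 5 of its arrays, and all 12 were found on more myopic than control arrays. Of 77 other miRNAs with partial detection, 60 were found more often on myopic arrays, 9 less often and 8 equally often. In the sclera 4 members had partial detection, 1 on more and 3 on fewer myopic arrays. Each member was measured by 2 or 3 probes of different length, and in spot signals without normalization the sign of the retina difference was the same for all its probes in 41 of 46 members. That sign was not always the fitted one: both probes were higher in the myopic retina, by 0.23 and 0.25 for mmu-miR-1897-5p, 0.13 and 0.16 for mmu-miR-3107-5p and 0.08 each for mmu-miR-1892, whose fitted differences were below 0. In 12 of the 13 members with a mean at least 2-fold higher, all probes were at least 2-fold higher too, the other being mmu-miR-2183 with 0.68 and 1.21 on the log2 scale. The 13 were picked on total gene signal, which is summed over these same probes. Their agreement is therefore no independent check of the difference.

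In the sclera no member was called between myopic and control eyes, as was none of the 443 miRNAs (0%), and no member had an unadjusted p under 0.05, against 2.93% of all miRNAs. The signal of mmu-miR-1196-5p was 17.7, 17.9 and 16.5 on the control scleras and 14.5 on myopic sclera 1, with no detection on the other 2. Its fitted difference of -4.37 ± 1.95 (adjusted p = 1, limma) rests on the floor on these 2 arrays, and from the spot signals the difference was -0.63 ± 0.79. mmu-miR-1940, detected in the sclera alone, had 20.5 and 22.1 on control scleras 1 and 2 and 9.72 on myopic sclera 1, and was undetected on the others. Apart from these 2, mmu-miR-2183 and mmu-miR-1892, which were each undetected on some sclera array, the fitted differences of all members were less than 2-fold between the groups of the sclera. Among members detected on all 6 sclera arrays and lower in 3 of 3 pairs were mmu-miR-1187 (-0.56 ± 0.72) and mmu-miR-1949 (-0.25 ± 0.20).

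The interaction compared the response to form deprivation between retina and sclera. No member was called, over all miRNAs 1 of 443 was (0.226%), and 4 members had an unadjusted p under 0.05 (8.13% of all). These were mmu-miR-1936 with a difference of responses of 3.74 ± 1.28, mmu-miR-1196-5p with 7.86 ± 2.75, mmu-miR-1947-5p with 5.05 ± 2.12 and mmu-miR-1187 with 2.30 ± 1.01 (adjusted p = 0.380 for each, limma). The first 3 of these sizes rest on floor values, since mmu-miR-1936 and mmu-miR-1947-5p were undetected on all sclera arrays and 2 control retinas, and mmu-miR-1196-5p on 2 myopic scleras and 1 control retina. From the spot signals they were 2.59, 2.79 and 3.10 for mmu-miR-1936, mmu-miR-1196-5p and mmu-miR-1947-5p. Without control retina 1, 12 members were called for the interaction, against 25.1% of all miRNAs, among them mmu-miR-1927, mmu-miR-3099-3p and mmu-miR-1187. The limit given for the retina calls without this array applies to these calls too. With array weights 19 members were called (background 35.2%), and without myopic retina 3 there were 2 (background 2.03%), with the limits given for the retina.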

How the data were processed

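The authors hybridized total RNA of 12 pools to Agilent mouse miRNA arrays (mm9 annotation) and extracted the images with Feature Extraction (version 11.0.1.1 in the file headers, an older version in the methods). The deposited scanner files hold intensity values: the total gene signal per miRNA, summed over its probes after background subtraction, the processed signal per spot and detection flags. A deposited table holds the authors' log2 values, made in Partek 6.6 from total gene signal with a minimum of 0.5 and quantile normalization. It served as an alternative and correlated with the log2 values computed here over the 46 members (r = 0.9996 across miRNAs and arrays, which are not independent).

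Here, total gene signal was floored at 0.5, quantile normalized over the 696 mouse names and 12 arrays, and log2 transformed. Differences were fitted with limma 3.58.1 (R 4.3.3) as 4 group means with 8 residual degrees of freedom, and p-values were adjusted by Benjamini-Hochberg over the 443 names detected on at least 1 array. A call needed an adjusted p under 0.05 and a 2-fold difference. A fold against a group without a detection is a bound. On each array of that group the limit was the lowest signal of detected miRNAs or the member's own brightest probe, whichever was higher. The bounds used signals scaled by the 75th percentile, without quantile normalization. On simulated data for the retina comparison, 40 of 443 miRNAs were changed by 2 on the log2 scale. With 3 arrays per group 63% of these were recovered, with 0.96 false calls on average among the unchanged miRNAs. The simulation drew independent normal noise for each miRNA. It held no deviation of a whole array such as that of control retina 1 and no loss of detection, so it does not describe their effect. Tables and figures were made with Python 3.11.15, pandas 2.3.3 and matplotlib 3.10.9.

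The labels give the same mouse identifiers across groups, so the pool number pairs the arrays. Deviations from the group means of same-numbered control and myopic arrays correlated at 0.38, -0.46 and 0.59 in the retina and at -0.14, -0.16 and -0.00 in the sclera, over 246 miRNAs. Each slide held 1 array of each group and 1 pool number, and the position on the slide was the same for a group throughout, so that slide and pool, and position and group, cannot be told apart. The number of arrays limits the precision.

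Members, marker lists and lists of miRNAs were chosen with earlier results of these data known. Named were members called in a comparison, the 10 brightest, those with the largest differences or with detection in 1 group alone, those the study names, and those sharing a seed, probe or locus. Alternatives covered the scaling, floor, background correction, filters, array weights, the pool number as a block and leaving out each array.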

Additional observations from a re-analysis of the deposited data

How the results depend on the processing

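The count of members called was 0 for the sclera response under every alternative run. For the retina response it was 20 with array weights and 0 to 14 when each array was left out in turn, and for the interaction 19 and 0 to 12. Among all 443 miRNAs these counts were 146 and 1 to 122 for the retina response, and 156 and 0 to 111 for the interaction. For higher in the control retina, the count of 3 became 5 with 75th percentile scaling, 10 without normalization, 11 with quantile normalization within each tissue, 9 and 8 with spot signals scaled over detected or over all probes, 0 with normexp and 5 with array weights. The count among all miRNAs moved as well, from 122 to 160, 224, 243, 161, 140, 26 and 135 in the same order. For higher in the control sclera, the count of 17 became 2, 2, 4 and 11 without normalization, within each tissue, with normexp and with array weights. Among all miRNAs 102 became 44, 43, 33 and 103. In myopic eyes 12 became 21, 20 and 2, and 19 became 1, 2 and 5, without normalization, within each tissue and with normexp. Leaving out each array gave 2 to 4 and 13 to 18 in control eyes, and 8 to 14 and 18 to 20 in myopic eyes. The ranges among all miRNAs were 97 to 120 and 94 to 104 in control eyes, and 130 to 149 and 113 to 123 in myopic eyes. The causes were not tested. The pool number as a replicate block left the retina count at 0 and changed no call, and 116 members were found with the chromosome 12 window included.

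Among the 78 named values, those that turned their sign follow, as log2 differences. Over all members more turned: in the retina response, of 43 with a difference other than 0, 19 did so without normalization, 7 with 75th percentile scaling and 7 with spot signals scaled over detected probes. Of the named values in the retina response, that of mmu-miR-1892 turned without normalization (0.0718). That of mmu-miR-1897-5p turned with 75th percentile scaling (0.13), without normalization (0.24) and with spot signals scaled over detected probes (0.0872). That of mmu-miR-3107-5p turned with the first 2 of these settings (0.0202 and 0.13). In control eyes, without normalization, mmu-miR-1897-5p was at 0.14, mmu-miR-1904 at 0.14, mmu-miR-1982-5p at 0.54, mmu-miR-2135_v15.0 at 0.11 and mmu-miR-2137 at 0.14. With normalization within each tissue these were 0.655, 0.34, 0.95, 0.27 and 0.56, and mmu-miR-2133_v15.0 was at 0.18 and mmu-miR-3107-5p at 0.23. In myopic eyes, without normalization, mmu-miR-1895 was at 0.82, mmu-miR-1897-5p at 0.45, mmu-miR-1904 at 0.36, mmu-miR-1982-5p at 0.54, mmu-miR-2133_v15.0 at 0.0007, mmu-miR-2134_v15.0 at 0.31, mmu-miR-2135_v15.0 at 0.18, mmu-miR-2137 at 0.21, mmu-miR-2145_v16.0 at 0.0457 and mmu-miR-3107-5p at 0.0642. Within each tissue mmu-miR-1895 was at 0.37, mmu-miR-1904 at 0.0133, mmu-miR-1982-5p at 0.15 and mmu-miR-2134_v15.0 at 0.0846. With spot signals scaled over all probes mmu-miR-1224-5p was at -0.0752, mmu-miR-1839-3p at -0.21 and mmu-miR-1944_v16.0 at -0.14, the last also at -0.0463 with normexp. Of the other values of single members under an alternative, 1842 kept direction and side of the threshold, 162 lost and 62 gained a call.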
